A study of Mus musculus with 18 samples.

Results

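The comparison described here sets mouse cells that had survived the withdrawal of the reprogramming factors, collected on day 18, against the fibroblasts of day 0, labelled as the start of the course. It uses 4 of the 18 microarrays of the series, 2 for day 18 and 2 for day 0, chosen by the group given in the sample labels, and all 20233 genes that could be named on them. The day 0 cells were secondary mouse embryonic fibroblasts at passage 4, prepared from E13.5 embryos that had been grown entirely from induced pluripotent stem cells (iPSC) by tetraploid complementation. They carried an Oct4-GFP reporter, the doxycycline-responsive transactivator M2rtTA at Rosa26 and inducible transgenes for the 4 reprogramming factors (Oct4, Sox2, Klf4 and c-Myc), and they grew in fibroblast medium with 10% serum without doxycycline. The day 18 cells are labelled with the same genotype, which was not tested; Y-linked genes, described at the end, separate the groups. By the labels the day 18 cells had spent 15 days in embryonic stem cell medium with 15% serum, 1000 U/ml of the cytokine LIF, 1 µg/ml doxycycline and 50 µg/ml vitamin C, and then 3 days after both additives were removed. Day 18 and day 0 therefore differ in the history of induction, in medium, LIF and vitamin C, in time in culture and in survival without the drug, and these cannot be told apart. The labels do not say that the 2 arrays of a group came from separate cultures, so the p-values reflect no more than the spread of these arrays, which may be technical. For orientation, levels on day 15, the last day with doxycycline, and in the iPSC line, which the labels describe as grown in the stem cell medium with added inhibitors, are given beside some results.

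Factor-driven reprogramming replaces the programme of a fibroblast, a mesenchymal cell that secretes collagen-rich matrix, with that of a pluripotent cell, which grows as an epithelial colony and is held in its state by a network around Oct4, Sox2 and Nanog. While doxycycline is present the inducible copies supply the factors; once it is removed, a cell can stay pluripotent only on its own genes, which is why cells that persist are called factor-independent. Genes of germ cells and of the placenta are normally kept silent in fibroblasts, many of the former by methylation of their promoters.

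Expression is given as the log2 value of the gene's probe set, and a difference as day 18 minus day 0 on the log2 scale with the standard error (SE) of the model. Adjusted p-values are from limma with Benjamini-Hochberg adjustment over all genes. A gene was called where its adjusted p was under 0.05 and its difference at least 1 in size, which is a 2-fold change. By this rule 1795 genes were higher on day 18, which is 8.87% of those tested, and 1748 were lower, which is 8.64%. The median difference over all genes was -0.03. A stricter rule asked in addition that each day 18 array lie at least 1 log2 from each day 0 array. It kept 1487 higher genes (7.35%) and 1352 lower genes (6.68%), so that 704 of the called genes did not have all their arrays apart. Changes of at least 16-fold were found for 109 higher and 24 lower genes.

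**Figure D1:**
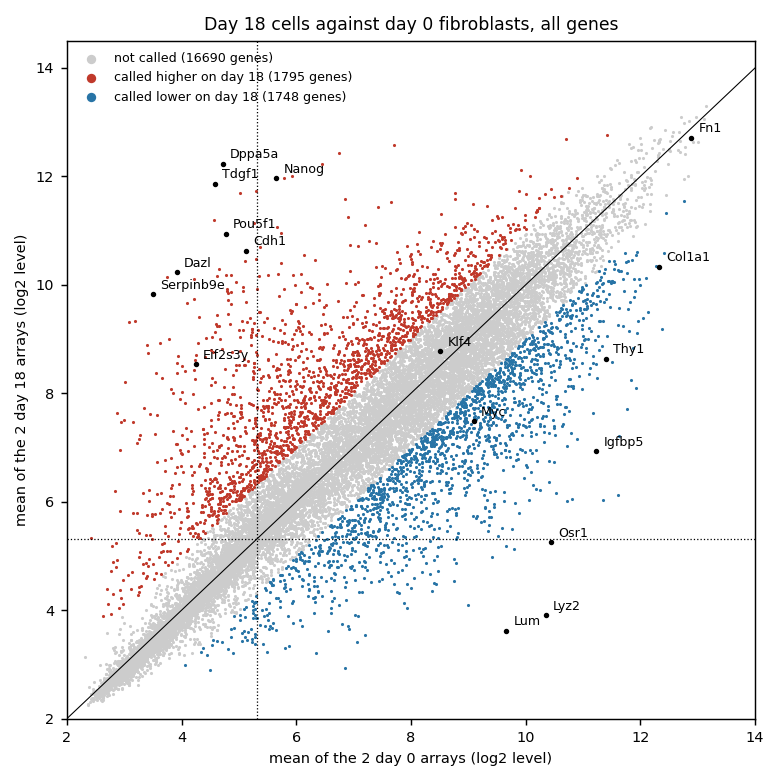
Mean log2 level of each of 20233 genes on the 2 day 0 arrays (horizontal axis) and the 2 day 18 arrays (vertical axis), with called genes in red (1795 higher) and blue (1748 lower), the line of equal level and, dotted, the background level of 5.32. Pluripotency genes such as Dppa5a and Nanog are at or just above the background level on day 0 and near 12 on day 18, while Lum and Lyz2 fall below the background level.

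The lowest level that can be read as expression was set from the 1075 olfactory receptor genes, which are mostly silent outside the nose and had a 95th percentile of 5.32. Of the genes called higher, 545 (30.36%) had a day 0 mean under that level, and of those called lower, 317 (18.14%) had a day 18 mean under it. For these genes the fitted log2 difference rests on readings within background and is not a measure of size; the folds given for them are lower bounds, taken against 5.32, and medians of lists are also given with such levels set to 5.32. The values of both day 18 arrays are printed throughout because they differed more than the arrays of any other group. Between them 264 genes were over 2-fold apart, against 5 to 16 genes in the other 8 groups, and the correlation over genes, which are not independent replicates, was 0.9925 against 0.9971 to 0.9984. Taken singly, array 1 lay past the 2-fold limit for 1649 of the 1795 higher genes and 1478 of the 1748 lower genes, and array 2 for 1744 and 1716. Since the fit shares 1 spread per gene over the 9 groups, the SE of a gene that varied only between the day 18 arrays is understated.

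**Figure D2:**
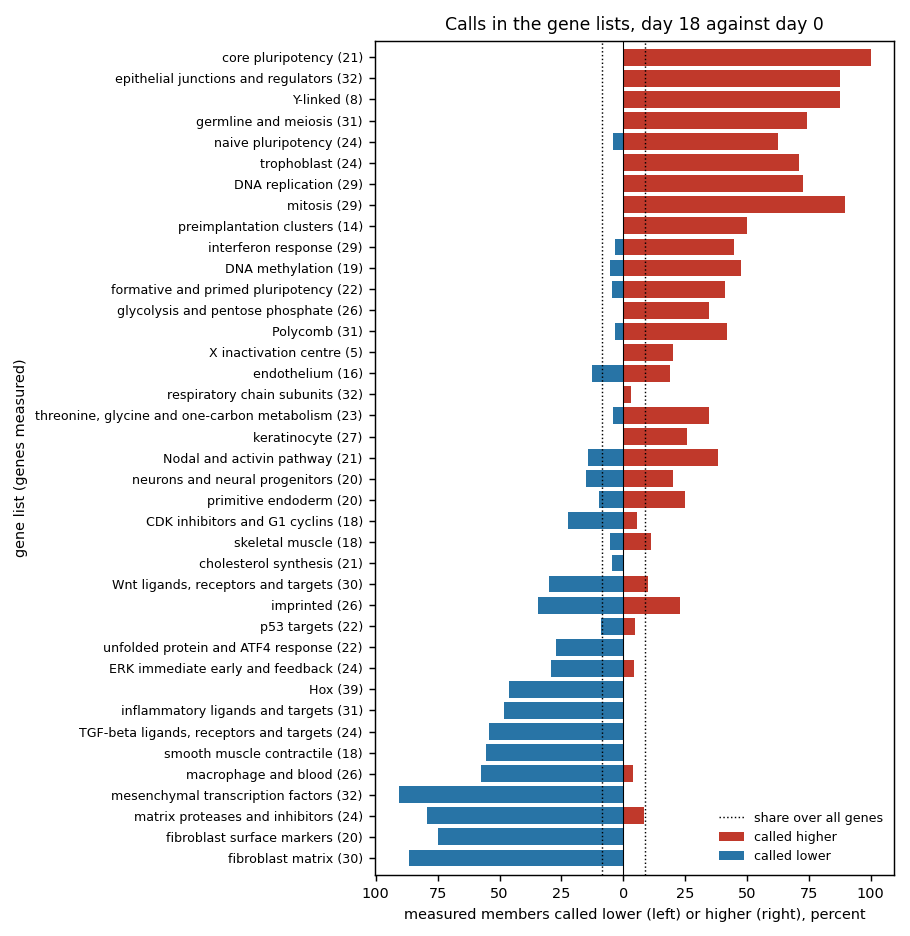
Share of the measured members of 39 gene lists that were called lower (blue, to the left) or higher (red, to the right) on day 18, in percent, ordered by the median difference of the list, with the share over all genes (8.64% lower, 8.87% higher) as dotted lines. Core pluripotency genes stand at the top with 21 of 21 members higher, and fibroblast matrix genes at the bottom with 26 of 30 lower.

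All 21 measured genes of the core pluripotency list were called higher with all arrays apart, with a median difference of 4.81 (4.16 with levels under background set to 5.32). Dppa5a, an RNA-binding protein of pluripotent cells, read 4.75 and 4.67 on the day 0 arrays and 12.11 and 12.35 on the day 18 arrays. The groups were far apart, and the difference of 7.52 (SE 0.12, adjusted p = 5.33e-14) was the largest fitted among the named genes, a rise of at least 120-fold. Tdgf1, a co-receptor for the ligand Nodal, went from 5.03 and 4.14 to 11.85 and 11.87 (difference 7.28, SE 0.22, adjusted p = 5.26e-12). Utf1, a chromatin-associated protein of pluripotent cells, went from 4.89 and 5.16 to 11.71 and 11.68, at least 82.9-fold higher. Nanog, a homeobox factor of the pluripotency network, read 5.63 and 5.67 on day 0 and 11.84 and 12.09 on day 18, a 79.4-fold rise (difference 6.31, SE 0.16, adjusted p = 1.12e-12). The orphan receptor Nr0b1, under background on day 0, rose by at least 4.79 log2 (fitted difference 5.90). The smallest rises of the list were those of Lin28b, an inhibitor of let-7 maturation, by 1.61, and of the zinc finger factor Sall1, by 1.69. No member of the list was over 2-fold apart between the day 18 arrays, and the median difference was 4.72 for array 1 and 4.90 for array 2.

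Of the 4 factors that had been induced, 2 were high on day 18 and 2 were not above their fibroblast level by the call. Pou5f1, which encodes Oct4, read 4.73 and 4.81 on day 0 and 10.90 and 10.98 on day 18 (difference 6.17, SE 0.07, adjusted p = 8.73e-16). Sox2 read 5.62 and 5.94 and then 11.97 and 11.98 (difference 6.20, SE 0.12, adjusted p = 9.8e-14). Both were thus high on each day 18 array 3 days after doxycycline was removed. Klf4 was already well expressed in the fibroblasts, at 8.36 and 8.65, and read 8.71 and 8.83 on day 18, a difference of 0.26 (SE 0.08, adjusted p = 0.0143) that was too small to be called. Myc fell from 9.09 on both day 0 arrays to 7.44 and 7.52 (difference -1.61, SE 0.09, adjusted p = 1.52e-09). On day 15, with doxycycline, the mean levels were 12.00 for Pou5f1, 9.35 for Sox2, 9.98 for Klf4 and 10.93 for Myc. Whether these probe sets read the inducible copies as well as the cell's own genes is not given in the sources used here.

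**Figure D3:**
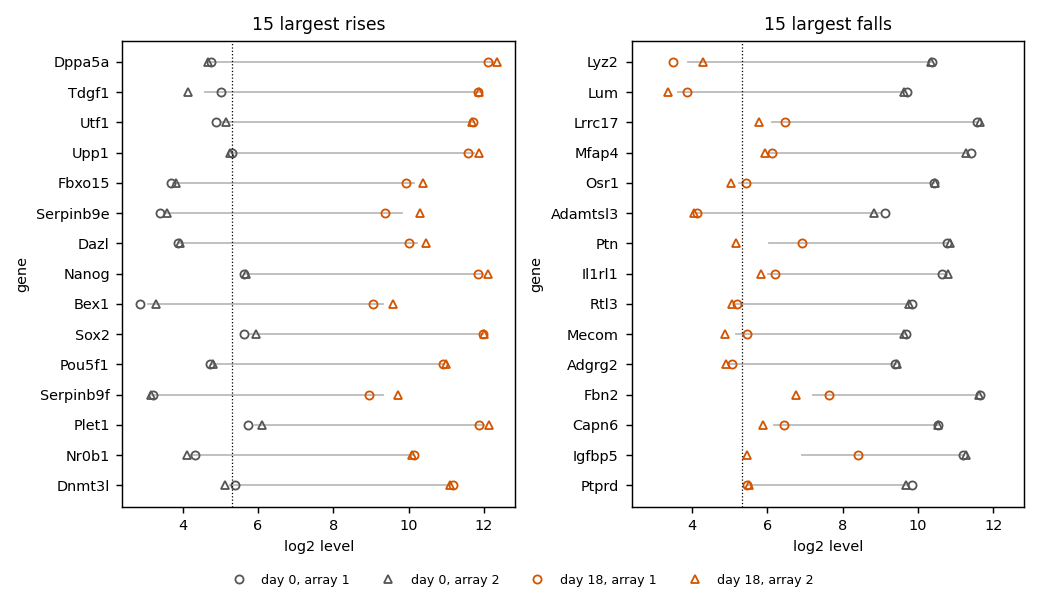
Log2 level on each of the 2 day 0 arrays (grey) and the 2 day 18 arrays (orange) for the 15 largest rises and the 15 largest falls by the naming rule, with a line between the group means and the background level of 5.32 dotted. The day 18 arrays nearly coincide for Tdgf1, Utf1 and Sox2, and are widely apart for Igfbp5 (8.41 and 5.46) and Ptn (6.91 and 5.17).

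Of 24 measured genes tied to naive pluripotency, the state of the preimplantation epiblast, 15 were higher, 1 was lower and 8 were not called. Esrrb, an orphan nuclear receptor of the naive network, went from 4.94 and 4.95 to 9.95 and 10.13 (difference 5.10, SE 0.11, adjusted p = 3.34e-13). Dppa3, a maternal factor that protects DNA methylation in the early embryo, went from 5.20 and 5.26 to a day 18 mean of 9.13 (difference 3.90, SE 0.33, adjusted p = 1.71e-07). Zfp42, also called Rex1, reached only 6.24 on both day 18 arrays from 3.72 and 3.92, and its mean in the iPSC line was 7.57. The member called lower was Il6st, the signalling subunit of the LIF receptor, with a difference of -1.18 that was under the 2-fold limit without day 18 array 2 (-0.97). Not called were Klf2, Nlrp14, Gbx2, Fgfr1, Stat3, Socs3 and Lifr besides Klf4, with differences from -0.69 to 0.96.

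The genes of formative and primed pluripotency, the states that follow as the embryo implants, were mixed, with 9 of 22 higher, 1 lower and a median difference of 0.63. Otx2, a homeobox factor of the formative epiblast, went from 5.03 and 5.11 to 10.05 and 9.88 (difference 4.89, SE 0.15, adjusted p = 6.05e-12), and its iPSC mean was 8.28. Zic2 rose by 3.00 and Lef1, a Wnt effector, by 2.77. Fgf5 (-0.20), T (0.07) and Foxa2 (0.03), which are later markers, were not called, while Eomes on the same list rose by 1.39. In the Nodal and activin pathway 8 of 21 genes were higher and 3 lower. The ligand Nodal itself read 5.47 and 5.73 and then 8.51 and 8.48. Its feedback inhibitor Lefty2, under background on day 0, rose by at least 1.33 log2 (fitted difference 2.49). Lefty1, also a feedback inhibitor, had a fitted difference of 2.45. The receptor Acvr2a fell by 2.00 and the activin subunit Inhba by 1.65.

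Germline and meiosis genes were higher across much of the list. Of 31 measured, 23 were higher, all of them with all arrays apart, none (0) was lower and 8 were not called, with a median difference of 2.36 (1.62 with levels under background set to 5.32). On day 0, 28 of the 31 were at background, and Taf7l, among the 23, was under background in both groups. The RNA-binding protein Dazl, needed for germ cell development, read 3.88 and 3.94 on day 0 and 10.00 and 10.46 on day 18 (difference 6.32, SE 0.12, adjusted p = 1e-13), at least 30.1-fold higher. Mael, of the piRNA pathway that silences transposons, went from 3.40 and 3.44 to 8.74 and 8.75 (at least 10.7-fold, adjusted p = 9.12e-14). The meiotic regulator Meioc went from 2.95 and 2.80 to 7.51 and 7.78, and the meiotic cohesin subunit Smc1b from 4.30 and 4.28 to 8.83 and 9.02. Both day 18 arrays read over 4 log2 above every day 0 array in these 4 genes, but the day 0 readings were under background. Against 5.32 the rise was at least 4.91 log2 for Dazl, 3.61 for Smc1b, 3.42 for Mael and 2.32 for Meioc. Genes of the synaptonemal complex and chromosome axis were among the others, with Sycp3 at 4.32, Hormad1 at 3.76, Sycp1 at 2.82 and Syce2 at 2.22 log2 above day 0, and so was Stra8, the retinoic acid target that opens meiosis, at 4.04. Spo11, which makes the breaks that start meiotic recombination, did not differ by the call (-0.07), nor did Sycp2, Tdrd1 or Brdt. Mean levels on day 15 were lower than on day 18 for Dazl (6.01) and Mael (4.21).

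The promoters of the 4 germline genes with the largest fitted rises are shown (an order that rests on day 0 readings under background, where the bound for Meioc is 5.00-fold and that for Smc1b 12.2-fold) because this class of genes is known to be held silent in somatic and pluripotent cells partly through its promoters, by DNA methylation and by a variant Polycomb complex that contains E2f6, Mga and Pcgf6. Each sequence is the RefSeq promoter of build GRCm38.p6 from 250 bases before to 50 bases after the gene's start, 5′ to 3′ along the gene, with capitals at the hexamers CACGTG, the E-box that reads the same on both strands, and TCCCGC on either strand (GCGGGA on the other), the core of an E2F6 site; the motifs do not overlap one another in them. The regions are chr17:50293571-50293870 (minus strand) for Dazl, chr1:166238695-166238994 (minus strand) for Mael, chr11:102665335-102665634 (plus strand) for Meioc and chr15:85131908-85132207 (minus strand) for Smc1b.
Dazl: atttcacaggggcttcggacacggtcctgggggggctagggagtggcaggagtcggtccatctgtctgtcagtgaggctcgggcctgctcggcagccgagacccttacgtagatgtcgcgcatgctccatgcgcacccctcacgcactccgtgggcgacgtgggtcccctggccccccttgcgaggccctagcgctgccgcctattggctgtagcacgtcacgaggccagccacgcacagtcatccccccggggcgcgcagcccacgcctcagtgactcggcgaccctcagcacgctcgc
Mael: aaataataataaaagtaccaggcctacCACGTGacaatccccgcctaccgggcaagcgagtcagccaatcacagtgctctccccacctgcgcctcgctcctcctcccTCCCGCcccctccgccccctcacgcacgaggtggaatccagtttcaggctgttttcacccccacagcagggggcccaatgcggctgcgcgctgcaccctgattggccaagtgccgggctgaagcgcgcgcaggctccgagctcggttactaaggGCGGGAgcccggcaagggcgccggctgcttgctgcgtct
Meioc: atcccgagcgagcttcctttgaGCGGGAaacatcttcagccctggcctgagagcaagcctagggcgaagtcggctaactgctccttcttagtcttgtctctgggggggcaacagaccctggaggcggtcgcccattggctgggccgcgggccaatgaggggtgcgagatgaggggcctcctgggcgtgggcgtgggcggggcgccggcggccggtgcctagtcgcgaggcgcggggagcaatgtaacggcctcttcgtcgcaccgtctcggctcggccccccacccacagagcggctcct
Smc1b: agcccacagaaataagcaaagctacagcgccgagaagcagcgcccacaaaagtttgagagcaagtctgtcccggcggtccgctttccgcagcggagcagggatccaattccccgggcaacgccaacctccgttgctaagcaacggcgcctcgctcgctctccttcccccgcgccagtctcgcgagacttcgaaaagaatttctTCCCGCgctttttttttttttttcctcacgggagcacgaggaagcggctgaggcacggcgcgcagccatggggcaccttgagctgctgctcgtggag
Mael holds 1 CACGTG and 2 TCCCGC matches, Meioc and Smc1b hold 1 TCCCGC each, and Dazl holds neither hexamer in this window. RefSeq promoters were matched for 21 of the 23 germline genes called higher. For these shares the first promoter listed for each gene was used. TCCCGC was found in 14 of the 21 (66.67%) and CACGTG in 9 (42.86%), against 20.02% and 7.24% of the 27025 promoters taken in this way. Among the genes called higher as a whole the shares were 36.05% and 9.32%, and among those called lower 32.96% and 7.91%. Of the 7 germline promoters whose genes were not called, 0 held TCCCGC and 3 held CACGTG. A match is a description of the letters and does not show a bound site.

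Of 14 genes from clusters active in the egg and the preimplantation embryo, 7 were higher and 8 were under background in both groups. Ooep, a maternal-effect protein of the egg, went from 6.86 and 6.82 to 11.50 and 11.67 (difference 4.75, SE 0.10, adjusted p = 3.27e-13), and Obox6, an oocyte-specific homeobox gene, only from 3.16 and 3.13 to 5.70 and 5.86, against an iPSC mean of 9.36. The 2-cell stage marker Zfp352 (0.51) and Tcstv3 (0.11) were not called.

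Trophoblast genes, of the lineage that forms the placenta, were higher in 17 of 24 cases, none (0) was lower, and the median difference was 1.85 (1.61 with levels under background set to 5.32). Plet1, a surface protein of early trophoblast, read 5.74 and 6.11 on day 0 and 11.86 and 12.14 on day 18 (difference 6.08, SE 0.11, adjusted p = 9.64e-14). Tpbpa, a marker of the spongiotrophoblast layer of the placenta, went from 3.36 and 3.43 to 8.51 and 9.25, at least 11.8-fold higher (difference 5.49, SE 0.17, adjusted p = 5.79e-12). The keratins Krt8 and Krt18, Hand1 (2.82) of giant cells and the placental genes Plac1 (3.96) and Rhox9 (5.19) rose as well. The transcription factors of the lineage were divided: Tfap2c rose by 4.81, Ascl2 by 1.89, Eomes by 1.39, Esx1 by 1.37 and Tead4 by 1.10, while Gata2 (0.98), Elf5 (0.77), Dlx3 (0.59), Cdx2 (0.35), Gata3 (0.23) and Gcm1 (-0.01) were not called. Among the 15 largest fitted rises were 2 placental serine protease inhibitors, Serpinb9e, from 3.41 and 3.59 to 9.36 and 10.29, and Serpinb9f, from 3.21 and 3.17 to 8.95 and 9.71. In the iPSC line the mean levels of Tpbpa (3.19), Serpinb9e (3.57) and Serpinb9f (3.28) were under background, and on day 15 those of Serpinb9e and Serpinb9f were 7.35 and 7.33. Whether a separate placental-like population or expression within the pluripotent cells gave these values was not tested, since in bulk RNA the number of cells of a kind and the RNA per cell cannot be told apart.

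The placental prolactin family was added to this description after its values were seen. Of 22 members other than pituitary Prl, 13 were called higher on day 18 and 0 lower, but 5 of the 13 had means under background in both groups. Prl2a1 went from 4.18 and 4.27 to 9.36 and 10.10 and Prl2c5 from 5.25 and 4.36 to 9.47 and 10.22, with day 15 means of 6.66 and 7.52. Related members can share probe sequence, so these are not independent counts. The family's median level was 3.60 in the fibroblasts and 5.00 in the day 18 cells, beside 3.86 for day 15 and 3.45 for the iPSC line, all of them under background.

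**Figure D4:**
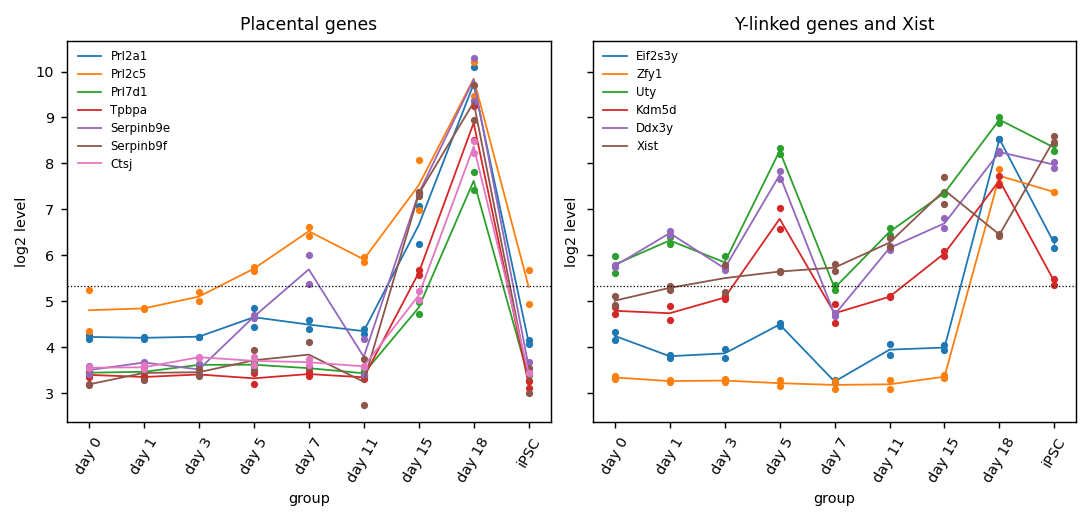
Log2 level on every array of the series (points) and group means (lines) of placental genes (left) and of Y-linked genes and Xist (right), with the background level of 5.32 dotted. The plotted placental genes are highest on the day 18 arrays, where Prl2a1 reads 9.36 and 10.10, and lie near or under background in the iPSC line; Eif2s3y and Zfy1 are under background from day 0 to day 15 and over 7.5 on both day 18 arrays.

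Epithelial genes rose together, with 28 of 32 higher, 0 lower and a median difference of 3.11 (2.60 with levels under background set to 5.32). Cdh1, or E-cadherin, the adhesion molecule of epithelial junctions, read 5.09 and 5.17 on day 0 and 10.51 and 10.74 on day 18, at least 39.6-fold higher (difference 5.50, SE 0.08, adjusted p = 3.37e-14). Krt8 and Krt18, the keratins of simple epithelia, reached 12.27 and 12.59 and 12.18 and 12.27 from 6.90 and 6.58 and 6.44 and 6.44. The desmosomal protein Dsp and Epcam, under background on day 0, rose by at least 5.12 and 4.39 log2 (fitted differences 5.34 and 4.90). The fitted difference of the splicing regulator Esrp1 was 4.37. Array 2 was above array 1 in 31 of the 32 genes, by a median of 0.23. Of 27 keratinocyte genes only 7 were higher and 14 stayed under background in both groups; Krt14 went from 4.84 and 5.19 to 8.92 and 9.15, while Krt5 (0.21) and the epidermal master regulator Trp63 (0.18) were not called. The list's median difference was 0.18 on day 18 and 2.23 on day 15, both against the same day 0 arrays.

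Fibroblast genes went the other way. Of 30 matrix genes 26 were lower, 0 higher and 4 not called, with a median difference of -2.25. Lum, a proteoglycan that organises collagen fibrils, fell from 9.70 and 9.63 to 3.87 and 3.37, below background, at least 20.3-fold lower (adjusted p = 1.18e-12). Mfap4, a microfibril protein, fell from 11.40 and 11.28 to 6.12 and 5.94. The collagens fell less: Col1a1 went from 12.31 and 12.32 to 10.65 and 10.01 (difference -1.99, SE 0.15, adjusted p = 3.73e-08), and Col1a2 from 12.04 on both to 9.79 and 8.98. The 4 matrix genes not called were Bgn (-0.83), Sparc (-0.38), Thbs1 (-0.37) and Fn1 (-0.17). The mean level of the list was 11.20 and 11.22 on the day 0 arrays, 9.11 and 8.33 on the day 18 arrays, 7.01 and 6.99 on day 15 and 9.78 and 9.61 in the iPSC line, which the labels describe as kept with or without feeder cells. The share of day 18 RNA that came from persisting fibroblasts was not tested.

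Surface markers of fibroblasts were lower in 15 of 20 cases. Thy1, the glycoprotein used to sort fibroblasts, read 11.36 and 11.45 on day 0 and 9.21 and 8.06 on day 18 (difference -2.77, SE 0.25, adjusted p = 2.56e-07), and the PDGF receptors Pdgfra and Pdgfrb fell by 2.07 and 2.03. Cdh11, the cadherin of mesenchyme, fell by 3.82. Of the mesenchymal transcription factors 29 of 32 were lower. Osr1, a factor of lateral and intermediate mesoderm, fell from 10.41 and 10.46 to 5.44 and 5.05 (difference -5.19, SE 0.13, adjusted p = 9.1e-13). The drivers of epithelial-mesenchymal transition fell by smaller amounts, Snai2 by 3.38, Twist1 by 2.36, Zeb1 by 1.78 and Snai1 by 1.31. Twist1 read 6.97 and 6.28 on day 18 against 8.97 and 9.01 on day 0. Among contractile genes of smooth muscle 10 of 18 were lower, led by Cnn1 (-3.20), and among matrix proteases and their inhibitors 19 of 24 were lower and 2 were higher, Mmp9 (1.40) and Mmp10 (1.05). Mmp10 was under the 2-fold limit without day 18 array 2 (0.98).

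The TGF-beta pathway, which sustains matrix production, had 13 of 24 genes lower and 0 higher. The receptor Tgfbr2 went from 10.75 and 10.72 to 8.46 and 7.80 (difference -2.61, SE 0.16, adjusted p = 5.74e-09), the ligand Tgfb3 fell by 2.48 and the target Tgfbi by 2.34. The count of lower members was 8 without the day 18 array 2. Other large falls were those of Lrrc17, from 11.56 and 11.65 to 6.49 and 5.78, and of the growth factor Ptn, from 10.77 and 10.84 to 6.91 and 5.17.

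Lyz2, the lysozyme of macrophages, fell from 10.36 and 10.34 to 3.51 and 4.31, at least 32.7-fold lower (adjusted p = 1.06e-11). Of 26 macrophage and blood genes 15 were lower and 1 was higher, and 24 of the 26 were at background on day 18 against 3 on day 0. C1qb, a complement component made by macrophages, fell from 8.98 and 8.57 to 4.69 and 5.04. The summed linear level of the list was 4290 and 3967 on the day 0 arrays and 1639 and 1787 on the day 18 arrays. The member that rose was Csf1r, the receptor for macrophage colony-stimulating factor, by 2.28; it is also known as a gene of trophoblast. These macrophage transcripts were present on day 0 and mostly at background on day 18, and their part in the inflammatory genes was not tested. Of those 31 genes 15 were lower and 0 higher: the IL-33 receptor Il1rl1 fell by 4.71, Il6 from 7.01 and 6.69 to 3.05 and 2.82, and the chemokine Cxcl12 from 10.19 and 10.21 to 7.40 and 6.09.

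Lists of other cell types gave calls in both directions, against 17.5% of all genes called. Of 20 primitive endoderm genes 5 were higher and 2 lower; Cubn, an endocytic receptor of visceral endoderm, went from 5.11 and 4.95 to 7.07 and 8.39, and Gata6 rose by 1.08 (0.85, not called, without day 18 array 2), while Sox17 (0.31), Foxa2 (0.03) and Afp (-0.07) were not called. In the endothelial list 3 of 16 were higher and 2 lower. Cdh5, or VE-cadherin, went from 4.82 and 4.89 to 9.98 and 10.39 (difference 5.33, SE 0.16, adjusted p = 5.13e-12) with an iPSC mean of 4.79. In contrast the endothelial receptor Kdr (-0.04) was not called. The transcription factor Erg, under background on day 18, fell by at least 3.42 log2 (fitted difference -3.80). Neural genes had 4 of 20 higher and 3 lower, and skeletal muscle genes 2 of 18 higher and 1 lower. In the last list Tnnt2, at 6.75 and 6.71 on day 0, read 8.98 on array 1 and 6.78 on array 2, and lost its call without array 1, without either day 0 array, with the mean of all probe sets (adjusted p = 0.0577) and in a fit of the 4 arrays alone (adjusted p = 0.232). Myl1, at -1.02 and under background in both groups, fell under the limit of size without day 18 array 1 or day 0 array 2.

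The 264 genes that were over 2-fold apart between the day 18 arrays were nearly all higher in array 1, 252 against 12. Of the 252, 164 were among the genes called lower on day 18, 12 among those called higher and 76 were not called. A higher mean on day 0 than in the iPSC line was found for 244. The share of all genes with this order was not counted. Their median level was 9.08 on day 0, 8.06 on array 1, 6.56 on array 2, 6.93 on day 15 and 6.78 in iPSC. The 252 were taken as higher in array 1, so its higher median follows from that choice. By these medians array 1 lay nearer to day 0, but not in each gene. Bche and Ifit3, both among the 252, differed from the day 0 mean by 2.47 and 1.74 on array 1. On array 2 they differed by -0.91 and -1.55. Among the gene lists, 30 of 30 matrix genes and 24 of 24 TGF-beta genes were higher in array 1. The median difference from day 0 of the matrix genes was -1.80 for array 1 and -2.64 for array 2. The core pluripotency genes were higher in array 1 in 6 of 21 cases. With 2 arrays this difference has no test.

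**Figure D5:**
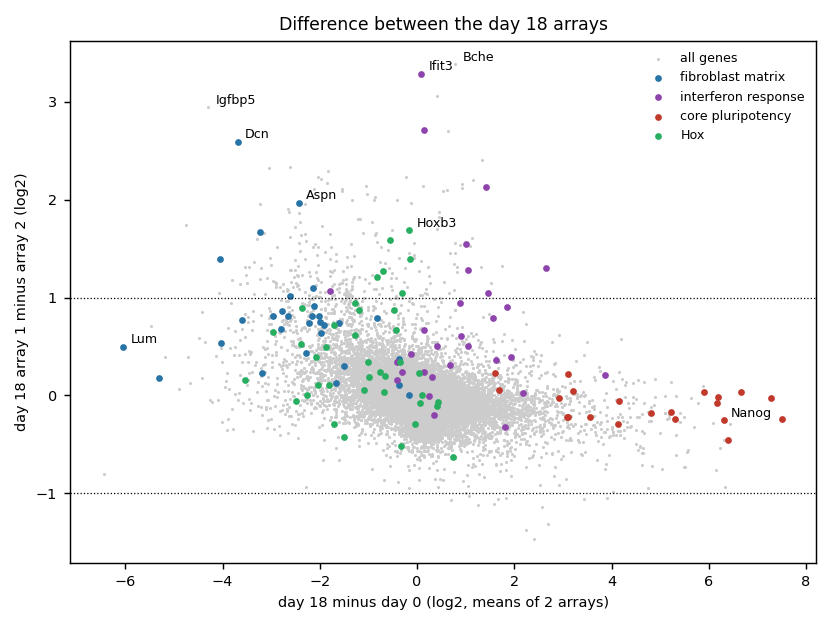
Difference between the 2 day 18 arrays (array 1 minus array 2, vertical axis) against the difference from day 0 (horizontal axis), both log2, for all genes and for 4 lists, with the 2-fold limits dotted. All 30 fibroblast matrix genes lie above 0, core pluripotency genes lie close to 0, and the interferon genes Ifit3 and Ifit1 are among the most discordant.

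The genes furthest apart show what rests on 1 array. Bche, a cholinesterase, read 5.98 and 5.61 on day 0 and 8.27 and 4.89 on day 18, so that the arrays of day 18 lay on both sides of those of day 0 and no change was called. The carrier protein Igfbp5 fell to 8.41 on array 1 and 5.46 on array 2 from 11.18 and 11.27 (difference -4.29, SE 0.58, adjusted p = 1.72e-05). Dcn, a matrix proteoglycan, read 8.32 and 5.73 on day 18 against 10.71 on both day 0 arrays. The limb and trunk factor Tbx15 read 8.78 and 6.46 against 10.66 and 10.68, and the stress-related Casp12 read 7.72 and 5.39 against 9.20 and 9.13. All 3 were lower than day 0 on each array, by amounts that the arrays do not agree on. Akr1c18, a progesterone-metabolising enzyme, was called higher on the strength of array 1, at 7.16 against 4.75 on array 2, and its call was lost without that array (adjusted p = 0.445), without day 0 array 1 (0.119) or array 2 (0.0633) and in the 4 arrays alone (0.211). The calls without all arrays apart were largest for 8 genes, Nfix, Cacna1g, Nr4a2, Mir145a, Nedd9, Boc, Mr1 and Cpq, all of them lower. Nfix, a transcription factor, read 11.91 on both day 0 arrays and 10.99 and 8.76 on day 18. Without array 2 all of them except Boc came under the 2-fold limit.

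Interferon response genes differed between the day 18 arrays as well. Of 29, 13 were called higher and 1 lower, but 26 were higher in array 1 than in array 2, 8 of them over 2-fold. The median difference from day 0 was 1.35 for array 1 and 0.41 for array 2. Without array 1 the counts were 8 higher and 3 lower. Ifitm1, an interferon-induced membrane protein that is also known from pluripotent and germ cells, was high on both, at 11.63 and 11.42 against 7.72 and 7.59 (difference 3.87, SE 0.12, adjusted p = 6.44e-12). Usp18, a negative regulator of the response, read 10.27 and 9.87 against 8.14 and 8.13. In contrast Ifit3, an antiviral effector, read 8.98 on array 1 and 5.69 on array 2 with 7.26 and 7.23 on day 0, and Ifit1 read 8.95 and 6.23 with 7.67 and 7.25. Neither was called. Without array 2 the difference was 1.49 for Ifit1, 1.74 for Ifit3, 1.99 for Ifit3b and 2.47 for Bche. Without array 1 it was -1.22 for Ifit1, -1.55 for Ifit3, -0.71 for Ifit3b and -0.91 for Bche. Ifit1 and Ifit3 thus passed the 2-fold limit in opposite directions. The member called lower was Ifit2, at -1.79.

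Cell cycle genes rose. Of 29 DNA replication genes 21 were higher, with a median difference of 1.49, and of 29 mitosis genes 26 were higher, with a median of 1.37. Mcm7, a subunit of the replicative helicase, went from 8.95 and 8.93 to 10.93 and 11.01 (difference 2.02, SE 0.07, adjusted p = 1.11e-11). Nusap1, a spindle protein, went from 8.16 and 8.22 to 10.28 and 10.42, and the checkpoint kinase Bub1 from 9.06 and 8.83 to 10.94 and 11.23. The 2 arrays of day 18 were above both day 0 arrays in these genes and close to each other. Among inhibitors and cyclins of the G1 phase, 4 of 18 were lower and 1 higher. Ccnd2, or cyclin D2, fell from 12.36 and 12.47 to 11.08 and 10.10, Ccnd1 read 10.13 and 9.26 against 11.13 and 11.12, and the inhibitor Cdkn2b read 7.93 and 7.67 against 9.42 and 9.41. Ccnd1 came just under the limit of size without array 2. Cdkn2a, the locus of the senescence barriers Ink4a and Arf, read 8.42 and 8.34 against 9.26 and 9.22, a difference of -0.86 (SE 0.09, adjusted p = 1.07e-06) that was not called for its size. Of 22 p53 targets 19 were not called; Perp, which is also a desmosomal gene, rose by 2.54, and Plk2 and Phlda3 fell by 1.46 and 1.23.

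Among genes of DNA methylation 9 of 19 were higher and 1 lower. Dnmt3l, the cofactor of the de novo methyltransferases, went from 5.38 and 5.14 to 11.18 and 11.09, at least 55.1-fold higher (difference 5.88, SE 0.18, adjusted p = 7.94e-12). The dioxygenase Tet1, which oxidises methylcytosine, went from 6.95 and 6.86 to 11.19 and 11.32, and the de novo enzyme Dnmt3b from a day 0 mean of 6.04 to 8.80 and 8.57. Tet2 rose by 1.77, and Tet3 fell by 1.10, or by 0.98 and under the limit without day 18 array 2. Of 31 Polycomb genes 13 were higher and 1 lower. Cbx7, the chromobox subunit of pluripotent cells, went from 6.37 and 6.42 to 9.78 and 9.89 (difference 3.44, SE 0.11, adjusted p = 1.29e-11), and the PRC2 partners Mtf2 and Jarid2 rose by 2.43 and 2.30. The methyltransferase Ezh2 rose by 1.54 and its core partners Suz12 and Eed by 1.72 and 1.06. Of the germline-repressing complex named above, Pcgf6 rose by 1.84 and Mga by 1.16, while E2f6 was not called (-0.78).

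Metabolic lists gave scattered calls with a few large members. Of 26 genes of glycolysis and the pentose phosphate pathway 9 were higher and 0 lower. Upp1, a uridine phosphorylase that feeds ribose into the pathway, went from 5.32 and 5.26 to 11.58 and 11.87 (difference 6.44, SE 0.12, adjusted p = 9.64e-14), and the glucose transporter Slc2a3 from 7.87 and 7.55 to 12.54 and 12.63. Of 32 respiratory chain subunits only Cox7a1 was called; it read 6.06 and 5.94 on day 0 and 9.49 and 9.81 on day 18. In threonine, glycine and one-carbon metabolism 8 of 23 were higher and 1 lower. Tdh, the threonine dehydrogenase that mouse embryonic stem cells depend on, went from 4.55 and 5.29 to 7.85 and 8.10, below its iPSC mean of 9.90. Gldc, of the glycine cleavage system, was under background on day 0 and rose by at least 3.96 log2 (fitted difference 4.04). Of 21 cholesterol synthesis genes only Hsd17b7 was called, at -1.31. The unfolded protein and ATF4 response had 6 of 22 genes lower and 0 higher, led by the cystine transporter Slc7a11, from 8.22 and 8.17 to 4.76 and 4.65.

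In signalling, 3 of 30 Wnt genes were higher and 9 lower, against 8.87% and 8.64% of all genes. The count of higher members is thus near the share over all genes. The ligand Wnt5a, a mesenchymal Wnt, fell from 9.85 and 9.70 to 7.17 and 6.13, and the receptor Fzd2 from 10.09 and 10.06 to 7.14 and 6.76. Lef1 rose from 5.76 and 5.59 to 8.72 and 8.17, Tcf7 rose by 2.60, and the feedback target Axin2 (0.15) was not called. Of 24 immediate early and feedback genes of the ERK pathway 7 were lower and 1 higher, a count that was 11 lower without array 1 and 3 without array 2. Fosl1, an AP-1 subunit, read 7.35 and 6.99 against 8.79 and 8.77. Etv5 rose from 7.77 and 7.51 to 8.96 and 8.93.

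Hox genes, which carry the positional identity of fibroblasts, gave 18 of 39 members lower and 0 higher. Hoxc8 fell from 9.50 and 9.38 to 5.97 and 5.81 (difference -3.55, SE 0.12, adjusted p = 1.49e-11) and Hoxd13 from 9.86 and 9.84 to 7.21 and 6.56. Of the HoxB genes Hoxb9 was the member called, at -1.27, and not without day 18 array 2 (-0.80); Hoxb3 (-0.16) and Hoxb5 (-0.14) were not. Of 26 imprinted genes 6 were higher and 9 lower. Phlda2, a growth-restraining gene of the placenta, went from 6.48 and 5.70 to 9.77 and 9.94. Meg3, the maternally expressed RNA of the Dlk1-Dio3 cluster, read 10.85 and 10.05 against 11.85 on both day 0 arrays (difference -1.40, SE 0.18, adjusted p = 1.3e-05). From the same cluster Mirg, under background on day 18, fell by at least 1.93 log2 (fitted difference -1.99). Dlk1 fell by 1.76, and Rtl1 was not called (-0.38).

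Sex-linked genes also separated the groups. Of 8 Y-linked genes 7 were higher on day 18 with all arrays apart, and the testis-determining gene Sry was not called (0.17). Of the 7, Zfy2 and Usp9y had means under background in both groups. Eif2s3y, a Y-linked translation factor, read 4.33 and 4.15 on day 0, under background, and 8.52 and 8.54 on day 18, at least 9.25-fold higher (adjusted p = 5.1e-13). Zfy1 went from 3.37 and 3.31 to 7.57 and 7.89, and Uty, which was above background on day 0, from 5.98 and 5.61 to 9.01 and 8.89. On day 15 the means of Eif2s3y (3.99) and Zfy1 (3.36) were under background. Those of Uty (7.36) and of the Y-linked Ddx3y (6.70) and Kdm5d (6.04) were above it. Ddx3y was also above background on day 0, at 5.74 and 5.80, and read 8.23 and 8.26 on day 18. Before that, on day 5, Uty read 8.33 and 8.21, while Eif2s3y read 4.52 and 4.47, under background. In the iPSC line the mean was 6.25 for Eif2s3y and 8.34 for Uty. Xist, the RNA that coats an inactive X chromosome, went from 5.10 and 4.92 to 6.43 and 6.47 (difference 1.44, SE 0.18, adjusted p = 9.46e-06), against an iPSC mean of 8.53. Whether the day 0 and day 18 cells descend from the same embryo was not tested, and every difference between them would carry any such difference of origin.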

How the data were processed

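RNA was measured on 18 Affymetrix arrays (9 groups of 2). What the authors deposited are log2 levels made with RMA (background correction, quantile normalization, probe summary), per the submitters' processing notes; its version, the chip definition and the build are unstated in the labels used here. A change shared by most genes would be removed by that normalization. Of 29643 probe sets, named by RefSeq accession, 27260 matched 1 symbol in a RefSeq table (GRCm38.p6, used for names), 0 several and 2383 none. The probe set with the highest mean stood for each of 20233 genes; 31 genes could not be separated from another. Of 952 list entries 24 were unmatched.

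Genes were tested with limma 3.58.1 in R 4.3.3, fitting 9 group means over all 18 arrays (residual degrees of freedom 9, prior degrees of freedom 4.25); the median SE was 0.0976, and the number of arrays limits the precision. A simulation of this comparison over 20233 genes found 99% of genes changed by 1.5 log2 and 100% of those changed by 3. Among genes left without change, 1 passed the rule. The day 18 arrays differed more than those of any other group, and the simulation has no separate result for that wider spread. Its figures therefore set no bound on false or missed calls that arise from differences between the day 18 arrays. Named were the 15 largest rises and 15 largest falls with all arrays apart (no predicted genes, olfactory or vomeronasal receptors), the 4 largest called members of each list, the 10 genes furthest apart between the day 18 arrays, the 8 largest called without all arrays apart and a set of reprogramming, fibroblast and sex-linked genes; other list members are given by their difference only, chosen after their values were seen. The members and the 39 lists were chosen with earlier results of these data known. Alternatives were the 4 arrays alone, a replicate block, array weights, an intensity trend, another quantile normalization, a filter on dim genes, the mean of all probe sets and leaving out each array.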

Additional observations from a re-analysis of the deposited data

Results flagged for a closer look

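Probe sets with no gene symbol are used in no comparison of the report. Of these 2383, 154 were called higher on day 18 than on day 0 and 84 lower. These calls came from a separate fit of the same design, adjusted over these probe sets alone. With all arrays apart and above background on both day 18 arrays, 108 were higher, with a largest difference of 5.72. Among the named genes 8.87% were higher, 8.64% lower and 7.35% higher with all arrays apart. The counts of 154 and 84 are below the matching shares. The 108 also had to be above background, which the 7.35% did not ask, so these are not like for like. The 108 probe sets drew attention as a signal outside the named genes that exceeds its level in the day 0 fibroblasts. What they transcribe is not analysed here.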

How the results depend on the processing

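The count of 3543 called genes lay between 3233 (1719 higher, 1514 lower, without day 18 array 2) and 3881 (1915 and 1966, without day 18 array 1) over the alternatives, and that with all arrays apart between 2779 and 3642 against 2839. Leaving out an array makes the rule of all arrays apart looser, since fewer arrays must then meet it. With all 4 arrays kept, the count with all arrays apart lay between 2779 and 2895. The 4 arrays alone gave 3517 called genes, array weights, which were 0.477 for day 18 and 1.15 for day 0, gave 3542, and another quantile normalization gave 1762 higher and 1813 lower. The replicate number as a block gave 3543 and changed no call of a named gene; the deviations of same-numbered day 0 and day 18 arrays correlated at 0.105 over genes, and the labels tie nothing else to the numbers. With 1 array left in a group, it is assumed to vary like the other groups. Of the 186 named genes 4, none of them called, changed direction with the array left out: over the single arrays left out, the difference ranged from -0.91 to 2.47 for Bche, -1.22 to 1.49 for Ifit1, -1.55 to 1.74 for Ifit3 and -0.71 to 1.99 for Ifit3b. In the 4 arrays alone 6 lost their call: Akr1c18 (adjusted p = 0.211), Tnnt2 (0.232), Mir145a (0.0928), Nr4a2 (0.0765), Cacna1g (0.0675) and Nfix (0.0638). Those that lost or gained a call without a single array are named in the report. The 264 genes over 2-fold apart between the day 18 arrays were 238 among genes above background.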

Other observations

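The families below were chosen after their values were seen, and their members share sequence, so that the counts are not independent. Clustered protocadherins, adhesion molecules of chromosome 18 best known from neurons, were lower on day 18. All 14 measured genes of the alpha cluster were called lower, with a median difference of -1.97 (-1.74 for array 1 and -2.20 for array 2), and all 21 of the gamma cluster, with a median of -1.41 (-0.90 and -1.91). None (0) of these 21 had all arrays apart, and 0 of 21 were called without day 18 array 2. Of the beta cluster, whose members have no shared constant exons, 10 of 22 were lower, 3 of them under background in both groups, and 6 of the 10 were called without day 18 array 2. The alpha and gamma members each share constant exons, so 1 change in a cluster can be read by all of its probe sets. On chromosome 18, 98 of 509 genes (19.25%) were called lower, of which 45 were protocadherins. Among the other 450 genes 53 (11.78%) were lower, against 8.64% of all genes. That share is within the range of the other chromosomes, where it was 12.4% on chromosome 3 and 11.0% on the X. Without day 18 array 2 the counts were 67 on the chromosome and 47 among the other genes.

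In further placental and reproductive clusters some members were called higher. Of 8 placental cathepsins, cysteine proteases of the mouse placenta, 3 were higher, 1 of them under background in both groups, and the family's median difference was 0.06. Ctsj went from 3.56 and 3.54 to 8.24 and 8.50, with an iPSC mean under background. In the Serpinb9 family 6 of 7 genes were higher and Serpinb9 itself was lower (-1.16), although not with all arrays apart. Of 11 genes of the Rhox homeobox cluster on the X chromosome 5 were higher and 6 not called, led by Rhox9 (5.19) and Rhox6 (3.79). Of the 1075 olfactory receptor genes 2 were higher and 4 lower.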
